A study of Mus musculus with 18 samples.

Results

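The transcripts of 7 genes of the heart's natriuretic peptide, atrial and fetal programme were followed through cold ischemic storage (CIS) and reperfusion, namely Nppa, Nppb, Myl4, Myl7, Sln, Ankrd1 and Acta1. These 7 genes were taken by name from the 34989 genes of the deposited tables, by a rule that uses no measured value, although the set was drawn up with earlier results of these data known. The samples were left ventricle (LV) and right ventricle (RV) of C57B/L6 mice 12 weeks of age, an inbred strain, with 3 libraries for each ventricle and storage time and 18 libraries in all. Every heart, those of the 0 h group included, was flushed with HTK, a histidine-buffered preservation solution, and then perfused ex vivo with Krebs buffer for 1 h before the ventricles were frozen. The groups differed in the time spent in ice-cold HTK before perfusion, which was 0, 4 or 8 h, so that the 0 h hearts were excised, flushed and perfused hearts and not hearts frozen straight from the animal. The study's methods give somewhat younger animals of both sexes, whereas the labels give 12 weeks and no sex. The replicate numbers were not stated to mark separate animals, and p-values measure only the spread between these libraries.

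Nppa and Nppb encode atrial and brain natriuretic peptide, hormones that cardiomyocytes release when the wall is stretched and that act through guanylyl cyclase receptors on vessels and kidney. Myl4 and Myl7 are the essential and regulatory myosin light chains of atrial muscle, and Sln encodes sarcolipin, a small atrial regulator of the sarcoplasmic calcium pump. In the adult mouse these atrial transcripts are low in ventricle, where they were higher before birth. Ankrd1 encodes a stress-induced ankyrin repeat protein of the sarcomere and the nucleus, and Acta1 encodes the skeletal isoform of alpha-actin, which the fetal and the overloaded ventricle uses beside the cardiac isoform.

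Each library held between 22552581 and 46236771 estimated counts, with a median of 29981406, and mitochondrially encoded genes took 22.7% to 34.4% of them. No 2 libraries were identical. The labelled tissue was matched by its defining genes, since the ventricular regulatory light chain Myl2 was between 7401 and 14080 TPM (transcripts per 1000000, which scales counts for transcript length) in every library. The Y-linked gene Ddx3y was at 2.441 CPM (counts per 1000000) or less in 6 libraries and at 62.1 CPM or more in the other 12. Those 6 libraries were replicate 2 of the 0 h group and replicate 3 of the 4 h and 8 h groups, in LV and RV alike. Because, in addition, the deviations of the LV and RV libraries of one storage time and number from the mean of their group were correlated (r of 0.33 to 0.70 in 9 of 9 pairs), they were treated as the 2 ventricles of 1 heart in a paired fit, which is given where it changed a call of the 7 genes or a count of the other lists by more than 1.5 times.

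Nppb and Nppa are neighbours on chromosome 4, with 13.5 kb between the end of Nppb (chr4:147985788-147987205, plus strand, GRCm38) and the start of Nppa (chr4:148000722-148002079, plus strand). Myl4 lies at chr11:104550663-104595753 on the plus strand and Myl7 at chr11:5896637-5898782 on the minus strand. Sln lies at chr9:53850164-53854560 (plus), Ankrd1 at chr19:36111961-36120099 (minus) and Acta1 at chr8:123891769-123894751 (minus). All 7 are protein-coding, and counts are over their exons. A single transcript carried all counts of Nppa, Nppb, Myl7, Sln and Ankrd1, Acta1-201 carried 99.8% of those of Acta1, and Myl4-202 carried 91.0% of those of Myl4. Strand was not used in the counting, so reads of antisense genes that overlap Nppa and Myl4 cannot be told apart from theirs. The coding sequence of Acta1 is close to those of its paralogs Actc1 and Acta2, and Acta1 also lies within a longer read-through gene, so its counts rest on how the software divided shared reads.

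RefSeq promoters on GRCm38.p6, of 250 bases before and 50 bases after the start, were at hand for 6 of the 7 genes, and Sln had no entry. The 250 bases before the start are shown for Nppb, Ankrd1 and Acta1, the genes that were higher in LV than in RV, and for Nppa, the neighbour of Nppb that did not pass that test. Each runs 5′ to 3′ on the strand of its gene. Capitals mark CATTCC on either strand (the M-CAT motif bound by TEAD factors, GGAATG when read from the other strand) and the CArG box bound by serum response factor. The windows are chr4:147985650-147985899 (plus strand) for Nppb, chr4:148000472-148000721 (plus) for Nppa, chr19:36119845-36120094 (minus) for Ankrd1 and chr8:123894776-123895025 (minus) for Acta1. They are counted from RefSeq starts, which differ from the GENCODE gene bounds above, so that the Nppb window runs past the GENCODE start and the Ankrd1 window lies inside the GENCODE gene.
Nppb: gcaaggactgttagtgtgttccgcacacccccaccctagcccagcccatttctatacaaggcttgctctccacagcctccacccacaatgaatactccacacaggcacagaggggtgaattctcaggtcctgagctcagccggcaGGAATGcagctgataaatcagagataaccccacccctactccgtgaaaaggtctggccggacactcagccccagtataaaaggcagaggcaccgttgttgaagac
Nppa: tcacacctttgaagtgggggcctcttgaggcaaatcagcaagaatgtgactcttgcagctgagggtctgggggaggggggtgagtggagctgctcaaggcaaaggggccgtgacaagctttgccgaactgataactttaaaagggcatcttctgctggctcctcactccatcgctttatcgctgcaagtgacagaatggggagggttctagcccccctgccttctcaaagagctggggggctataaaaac
Ankrd1: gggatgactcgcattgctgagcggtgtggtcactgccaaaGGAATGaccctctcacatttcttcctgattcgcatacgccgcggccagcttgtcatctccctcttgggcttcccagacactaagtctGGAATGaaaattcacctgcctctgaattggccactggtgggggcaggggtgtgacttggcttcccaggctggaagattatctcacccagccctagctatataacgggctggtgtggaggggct
Acta1: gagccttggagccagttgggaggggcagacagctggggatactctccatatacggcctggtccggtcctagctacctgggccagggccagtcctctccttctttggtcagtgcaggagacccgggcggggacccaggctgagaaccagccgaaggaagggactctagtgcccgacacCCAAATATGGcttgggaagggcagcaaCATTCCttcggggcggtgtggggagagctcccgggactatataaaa

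The Nppb window held 1 CATTCC match, at bases -105 to -100, counted back from -1 at the base before the start. Ankrd1 held 2, at -210 to -205 and at -123 to -118, and Acta1 held 1, at -46 to -41. Myl7 also held 1, at -70 to -65, whereas Nppa and Myl4 held none in these windows. This motif was found in 14.7% of the 32851 RefSeq promoters of the same length. A CArG box was found in Acta1 at -73 to -64 and in Myl7 at -61 to -52, and in 1.63% of all promoters. GATAA, the core bound by GATA factors, was found at 2 positions each in Nppa and Nppb and at 1 in Ankrd1 and Myl7, against 25.4% of all promoters with a match. TATAAA was found in Nppa, Nppb and Acta1, against 13.6% of all. AAGTG, the core bound by Nkx2-5, occurred in Nppa, Myl4, Myl7 and Acta1 and in 46.4% of all promoters, and the AP-1 motif TGANTCA occurred in none of these 6 and in 7.81% of all. These are matches of letters and were not measured as bound sites.

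On the length-scaled level, Ankrd1 was the most abundant of the 7 genes, with a median of 566 TPM over the 18 libraries. Nppb had a median of 299 TPM and Nppa of 284 TPM, and the ranges of the pair overlapped, at 46.8 to 962 TPM and 73.1 to 783 TPM. Acta1 followed with a median of 144 TPM, Myl4 with 55.9 TPM, Myl7 with 52.4 TPM and Sln with 7.52 TPM. For comparison, the ventricular light chain Myl2 had a median of 10940 TPM and the cardiac actin Actc1 of 6084 TPM. Within genes, the highest library exceeded the lowest by 4.70-fold for Ankrd1, 11.8-fold for Nppa and 16.8-fold for Nppb on the CPM scale. The same ratio was 29.2 for Myl4, 32.6 for Acta1, 42.0 for Myl7 and 86.9 for Sln. Sln rested on few reads in its lowest library, with 14 estimated counts there and 886 in its highest.

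**Figure D1:**
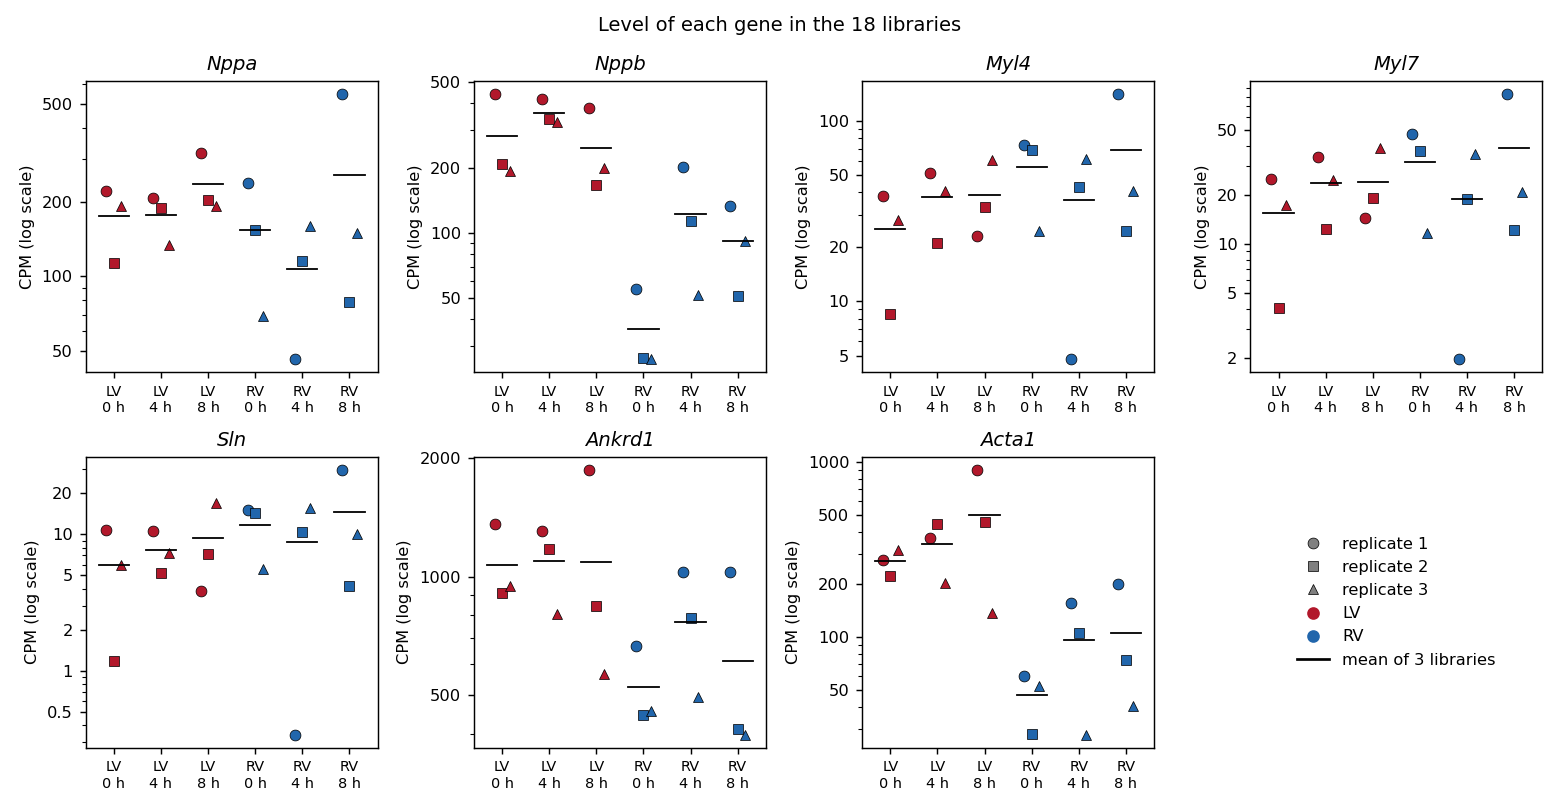
Level of each gene in each library, in CPM on a log scale, by ventricle and storage time (red, LV, blue, RV; marker shape, replicate number; black line, mean of 3 libraries). Nppb and Acta1 were higher in LV than in RV, Nppb in the RV was lowest at 0 h, and Myl4, Myl7 and Sln share the same low libraries in LV 0 h (replicate 2) and RV 4 h (replicate 1).

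Nppb was higher in LV than in RV and rose in RV after 4 h of storage. In LV its level was 439, 209 and 194 CPM at 0 h, 417, 337 and 327 CPM at 4 h, and 378, 167 and 200.03 CPM at 8 h, in the order of replicates 1, 2 and 3. In RV it was 55.3, 26.55 and 26.2 CPM at 0 h, 203, 114 and 51.9 CPM at 4 h, and 133, 51.2 and 92.3 CPM at 8 h. The LV and RV groups were separate at each storage time, and 6 of the 9 LV libraries lay above every RV library. By mean ± SD (n = 3), the order was LV 4 h (360.4 ± 49.2 CPM), LV 0 h (281 ± 138), LV 8 h (249 ± 114), RV 4 h (123 ± 75.8), RV 8 h (92.2 ± 40.95) and RV 0 h (36.0 ± 16.7). Of the neighbours in this order that belong to the same ventricle, none passed the unpaired test. The RV 8 h and RV 0 h groups passed with the replicate block, which joins different hearts by number.

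Over the 3 storage times, Nppb was 3.95-fold higher in LV than in RV (log2 1.98, SE 0.29, edgeR adjusted p = 0.00252). The difference was 7.79-fold at 0 h (log2 2.96, SE 0.53, adjusted p = 0.0657), 2.93-fold at 4 h (adjusted p = 1) and 2.69-fold at 8 h (adjusted p = 0.316). Within hearts, LV exceeded RV in 9 of 9, by 2.88 to 2.99 log2 units at 0 h, 1.04 to 2.65 at 4 h and 1.12 to 1.70 at 8 h. With the replicate block the call was also made at 4 h (log2 1.74, adjusted p = 0.0054) and at 8 h (log2 1.44, adjusted p = 0.00151). The unpaired call at 0 h was lost in fits without LV replicate 1 or 2 or without any of the 3 RV libraries (log2 2.48 to 3.43, adjusted p of 0.113 to 0.307), whereas paired fits kept it whichever heart was left out.

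In the RV, Nppb rose 3.44-fold from 0 h to 4 h (log2 1.78, SE 0.53, edgeR adjusted p = 0.0807). At 8 h it stood 2.57-fold above 0 h (log2 1.36, SE 0.52), which did not pass in the unpaired fit (adjusted p = 0.113) and passed with the replicate block (log2 1.41, adjusted p = 0.0242). The replicate block also gave log2 1.74 at 4 h (adjusted p = 0.02). Without RV 0 h replicate 2 or 3, or RV 4 h replicate 1 or 2, the unpaired value at 4 h was 1.60, 1.59, 1.21 and 1.84 on the log2 scale with adjusted p of 0.269, 0.286, 0.265 and 0.145. From 4 h to 8 h the RV difference was log2 -0.42 (95% interval -1.56 to 0.73). In the LV the difference from 0 h was log2 0.36 at 4 h (-0.47 to 1.20) and -0.17 at 8 h (-1.01 to 0.66), and neither passed. The difference between the ventricles in the change to 8 h was log2 -1.53 (SE 0.70, adjusted p = 1), and -1.51 (SE 0.32, adjusted p = 0.0172) with hearts as the block. For the change to 4 h it was -1.41 (adjusted p = 1), and -1.21 (adjusted p = 0.198) with the block.

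Without a covariate, Nppb was the only one of the 7 genes called with storage time in the unpaired fits, where calls were made at an adjusted p below 0.1 with more than 1.5-fold change. With a Y-linked covariate Acta1 was also called in RV at 8 h (log2 1.04, edgeR adjusted p = 0.0965). The counts that follow are without it. In RV, 1 of 7 was called at 4 h, against 10.1% of all genes tested, and 0 of 7 at 8 h, against 18.2%. With the replicate block 1 of 7 was called at 4 h, against 13.9% of all genes, and 1 of 7 at 8 h, against 24.3%. These shares of the 7 genes were near those of all genes. In LV, edgeR called 0 of 7 at 4 h (background 2.79%), 0 of 7 at 8 h (6.72%) and 0 of 7 between 4 and 8 h (0%), with 0 of 7 at an unadjusted p under 0.05 in each and 0 of 7 by DESeq2. Between 4 and 8 h in RV the count was 0 of 7, 0 at an unadjusted p under 0.05 and 0 by DESeq2, with a background of 0%. At 8 h in RV, 1 of 7 had an unadjusted p under 0.05 and DESeq2 called 1, Nppb in both cases.

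**Figure D2:**
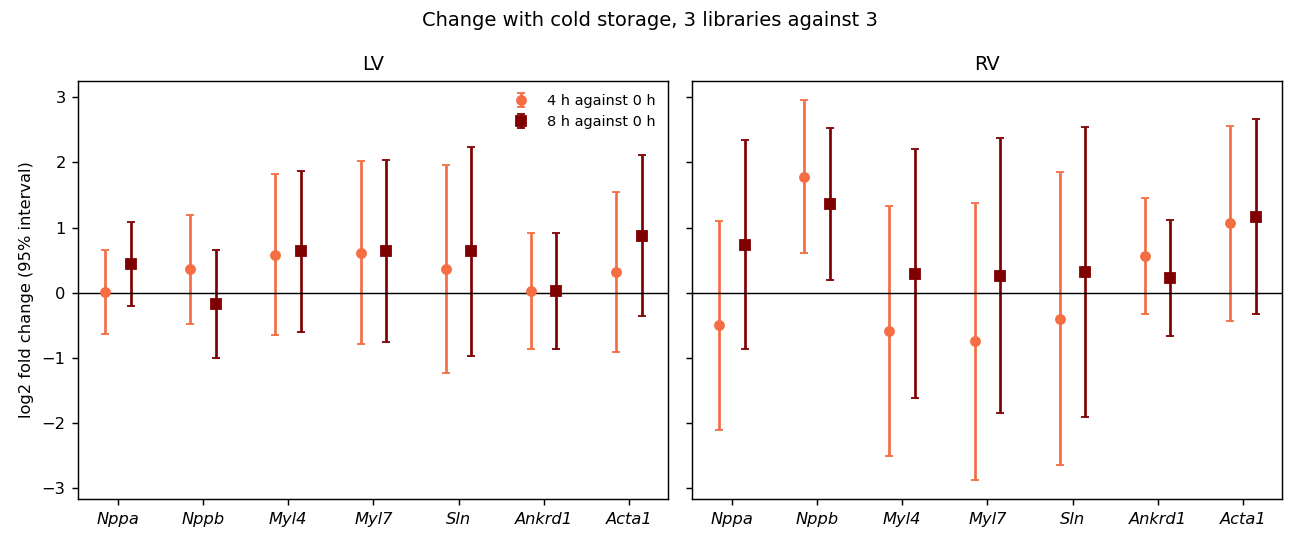
Log2 fold change from 0 h to 4 h (circles) and to 8 h (squares) for each gene in LV (left) and RV (right), from the unpaired edgeR fits with 3 libraries against 3, bars being 95% confidence intervals. Only the intervals of Nppb in RV lie above 0, and in RV those of Myl4, Myl7 and Sln are the widest.

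Nppa, which lies beside Nppb, did not follow it. Its level in LV was 222, 113 and 193 CPM at 0 h, 208, 189.9 and 134 CPM at 4 h, and 316, 204 and 193 CPM at 8 h. In RV it was 239, 154 and 69.1 CPM at 0 h, 46.4, 115 and 161 CPM at 4 h, and 547, 78.5 and 149 CPM at 8 h. The lowest and the highest of the 18 values were both in RV, and LV and RV overlapped at each storage time. In order of the mean the groups were RV 8 h (258 ± 253 CPM, SD, n = 3), LV 8 h (238 ± 68.2), LV 4 h (177 ± 38.6), LV 0 h (176 ± 56.4), RV 0 h (154 ± 84.7) and RV 4 h (108 ± 57.5), and no tested pair among them passed the edgeR test. The RV 8 h mean rested on replicate 1.

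For Nppa the difference between LV and RV over storage times was log2 0.27 (95% interval -0.48 to 1.01, edgeR adjusted p = 0.834), with LV above RV in 5 of 9 hearts. The change at 8 h was log2 0.44 in LV (-0.21 to 1.08) and 0.74 in RV (-0.87 to 2.34), neither of which passed. The ratio of Nppb to Nppa ranged from 0.172 in RV 0 h replicate 2 to 4.37 in RV 4 h replicate 1, a 25.4-fold range over libraries.

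The 3 atrial muscle genes, Myl4, Myl7 and Sln, rose and fell together from library to library with no call by ventricle or storage time. Myl4, the atrial essential light chain, was at 38.4, 8.47 and 28.2 CPM in LV at 0 h, 51.0, 21.1 and 40.8 CPM at 4 h, and 22.9, 33.4 and 60.5 CPM at 8 h. In RV it was at 73.0, 69.0 and 24.3 CPM at 0 h, 4.79 (197 estimated counts), 42.9 and 61.7 CPM at 4 h, and 139.9, 24.4 and 40.6 CPM at 8 h. RV 4 h replicate 1 and LV 0 h replicate 2 were the lowest libraries, and RV 8 h replicate 1 was the highest.

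Myl7, the atrial regulatory light chain, gave 25.0, 4.02 and 17.2 CPM in LV at 0 h, 34.2, 12.3 and 24.6 CPM at 4 h, and 14.4, 19.1 and 38.9 CPM at 8 h. In RV the values were 47.1, 37.0 and 11.7 CPM at 0 h, 1.97, 18.8 and 35.7 CPM at 4 h, and 82.8, 12.2 and 20.7 CPM at 8 h. These are the same lowest and highest libraries as for Myl4. Sln, the calcium pump regulator, was at 10.7, 1.18 and 5.91 CPM in LV at 0 h, 10.6, 5.21 and 7.32 CPM at 4 h, and 3.82, 7.19 and 17.1 CPM at 8 h. In RV it was at 15.1, 14.3 and 5.58 CPM at 0 h, 0.341, 10.4 and 15.7 CPM at 4 h, and 29.6, 4.18 and 9.96 CPM at 8 h. Its lowest library was again RV 4 h replicate 1 and its highest RV 8 h replicate 1.

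By group mean, Myl4 was highest in RV 8 h (68.3 ± 62.5 CPM, SD, n = 3), followed by RV 0 h (55.5 ± 27.0), LV 8 h (38.9 ± 19.4), LV 4 h (37.6 ± 15.2), RV 4 h (36.5 ± 29.0) and LV 0 h (25.1 ± 15.2). Myl7 took the order RV 8 h (38.6 ± 38.6), RV 0 h (31.9 ± 18.2), LV 8 h (24.1 ± 13.0), LV 4 h (23.7 ± 11.0), RV 4 h (18.8 ± 16.9) and LV 0 h (15.4 ± 10.6). Sln took the order RV 8 h (14.6 ± 13.3), RV 0 h (11.7 ± 5.30), LV 8 h (9.37 ± 6.90), RV 4 h (8.79 ± 7.78), LV 4 h (7.71 ± 2.72) and LV 0 h (5.94 ± 4.78). No tested pair in any of these orders passed the edgeR test. The mean coefficient of variation within groups was 61.8% for Myl4, 69.3% for Myl7 and 69.1% for Sln, against 37.9% for Ankrd1 and 43.5% for Nppb.

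Over storage times the LV difference from RV was log2 -0.64 for Myl4 (95% interval -1.62 to 0.34), -0.46 for Myl7 (-1.55 to 0.62) and -0.60 for Sln (-1.78 to 0.58), with edgeR adjusted p of 0.653, 0.79 and 0.743. LV was above RV in 4 of 9 hearts for each of the 3 genes, and within hearts the difference for Sln ran from -3.53 to 4.72 log2 units. In LV, the estimates from 0 h to 8 h were log2 0.64 for Myl4, 0.64 for Myl7 and 0.64 for Sln, with adjusted p of 0.503, 0.551 and 0.611. In RV they were 0.29, 0.26 and 0.32, with adjusted p of 0.827, 0.858 and 0.839. The widest interval among these 8 h estimates, for Sln in RV, ran from -1.91 to 2.55.

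The ratio of Myl7 to Myl4 stayed between 0.411 and 0.671 (median 0.580) in the 18 libraries, a 1.63-fold range. That of Sln to Myl4 ranged 3.97-fold, with its lowest value, 0.0711, in RV 4 h replicate 1, where Sln had 14 estimated counts. Across the 18 libraries and 9971 genes of at least 5 CPM on average, the genes whose log2 CPM was most like that of Myl4 were Myl7 (Pearson r = 0.99), Sln (r = 0.98) and Dkk3 (r = 0.89). Myl7 and Sln likewise had the other 2 genes and then Dkk3 as their nearest (r of 0.85 for Dkk3 with each). With group means removed, r was 0.996 between Myl4 and Myl7, 0.98 between Myl4 and Sln, and 0.93 between Myl4 and Dkk3. Nppa then had Myl7 (r = 0.80), Myl4 (r = 0.79) and Lrrc49 (r = 0.79) as its nearest genes, whereas its r with Nppb was 0.29. On log2 CPM the nearest to Nppa were Tor2a (r = 0.75), Myl7 (r = 0.74) and Myl4 (r = 0.69). These are descriptions over libraries of which each LV shares a heart with an RV.

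**Figure D3:**
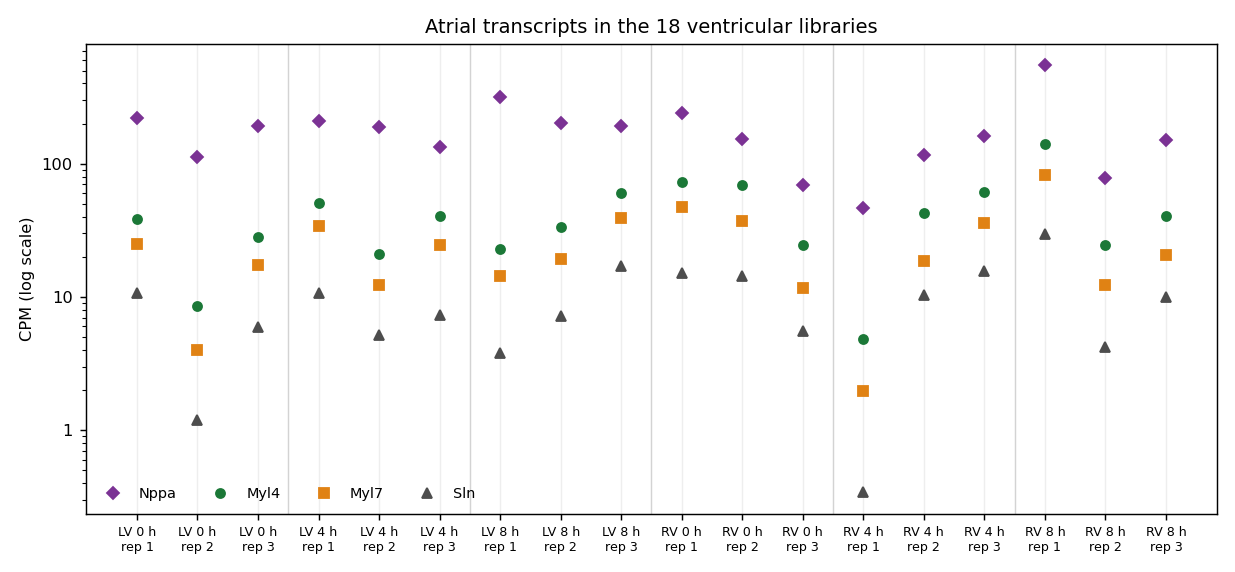
Level of Nppa, Myl4, Myl7 and Sln in each of the 18 ventricular libraries, in CPM on a log scale, grouped by ventricle and storage time. The 3 muscle genes are lowest together in RV 4 h replicate 1 (4.79, 1.97 and 0.341 CPM) and highest together in RV 8 h replicate 1 (139.9, 82.8 and 29.6 CPM), and Nppa has its lowest and highest values in the same 2 libraries.

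Of 12 other atrial-enriched genes, Bmp10 and Dkk3 were also uneven between libraries. Dkk3 was named for its likeness to these 3 genes, and Bmp10, under 5 CPM on average, was not compared. The sum of the 12 was highest of RV 8 h in replicate 1 (286 TPM) and lowest of RV 4 h in replicate 1 (214 TPM). In LV at 0 h it was highest in replicate 2 (290 TPM), the lowest LV library of Myl4, Myl7 and Sln. Bmp10, a growth factor of right atrial muscle, was at 2.60, 2.27 and 0.196 CPM in RV at 0 h, 0.0487, 0.117 and 1.59 CPM at 4 h, and 5.51, 0.0444 and 0.222 CPM at 8 h. In LV it had 0 counts in 5 of 9 libraries and at most 5 counts in the others. Its highest value was in RV 8 h replicate 1, the library highest for Myl4, Myl7, Sln and Nppa. Dkk3, a secreted protein of the Dickkopf family, was at 33.2 CPM in that same library, 4.02 CPM in RV 4 h replicate 1 and 5.03 CPM in LV 0 h replicate 2. The part of atrial tissue in the libraries was not tested beyond these levels. In bulk tissue, fewer cells of a type and less RNA per cell cannot be told apart.

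Over storage times, where 1.18% of all genes were called, edgeR called 3 of the 12 genes lower in LV than in RV and none higher. They included Bmp10 (log2 -5.68, adjusted p = 0.0548), whose fitted fold depends on a prior count because 5 LV libraries were at 0. With storage, 1 of 10 tested was called lower in LV at 4 h (2.79% of all genes were called) and 2 of 10 in LV at 8 h (6.72%). In RV it was 2 of 12 at each time (10.1% and 18.2%), and none was called higher. Nr2f2, an orphan nuclear receptor of atrial and venous cells, fell at 4 h by 1.16 on the log2 scale in LV (adjusted p = 0.0575) and by 1.41 in RV (adjusted p = 0.045). Gja5, a gap junction protein of atrium, conduction system and arterial endothelium, fell in RV by 0.97 at 4 h and 0.60 at 8 h. Pam, the amidating enzyme of atrial granules and the most abundant gene of the list (median 176 TPM), was not called at 8 h, with differences from 0 h of -0.15 (LV) and -0.14 (RV). The replicate block called 5 of 12 lower in RV at 8 h (24.3% of all genes were called), among them Nr2f2 (log2 -0.75). Paired fits called 2 of 12, Bmp10 and Stard10, lower in LV than in RV at 0 h (1.85%) and 1, Bmp10, at 8 h (8.78%). The list's median change at 8 h was log2 -0.58 in LV and -0.59 in RV, against -0.02 and -0.07 over all genes tested.

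Ankrd1, the ankyrin repeat stress protein, was higher in LV than in RV of every heart, by 0.34 to 1.05 log2 units. In LV it was at 1362, 909 and 949 CPM at 0 h, 1305, 1175 and 804 CPM at 4 h, and 1869, 846 and 567 CPM at 8 h. In RV it was at 669, 446 and 457 CPM at 0 h, 1030, 785 and 495 CPM at 4 h, and 1028, 412 and 398 CPM at 8 h. The groups did not overlap at 0 h and overlapped at 4 and 8 h. By mean the groups were ordered LV 4 h (1095 ± 259.8 CPM, SD, n = 3), LV 8 h (1094 ± 686), LV 0 h (1073 ± 250.5), RV 4 h (769.9 ± 268), RV 8 h (613 ± 359.7) and RV 0 h (524 ± 125).

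Within hearts, LV exceeded RV for Ankrd1 by 1.03 to 1.05 log2 units at 0 h, 0.34 to 0.70 at 4 h and 0.51 to 1.04 at 8 h, in 9 of 9 hearts. In the unpaired fit the difference over storage times was 1.73-fold (log2 0.79, SE 0.25) and did not pass (edgeR adjusted p = 0.198), whereas it passed in DESeq2 (adjusted p = 0.0507), with a Y-linked covariate (adjusted p = 0.066) and without LV 8 h replicate 3 or RV 8 h replicate 1 (log2 0.90 and 0.99, adjusted p of 0.0759 and 0.0764). With hearts as the block it was the same size (log2 0.79, SE 0.06) and passed (adjusted p = 3.0e-05). The block also gave calls at 0 h (log2 1.04, adjusted p = 7.9e-04) and at 8 h (log2 0.80, adjusted p = 7.8e-04), while at 4 h the difference of log2 0.54 (adjusted p = 0.0339) was under the fold limit. With storage, Ankrd1 differed from 0 h by log2 0.03 at 4 h and 0.03 at 8 h in LV (95% intervals -0.86 to 0.92 for both), and by 0.57 (-0.32 to 1.46) and 0.22 (-0.67 to 1.11) in RV, none of which passed.

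Acta1, skeletal alpha-actin, showed the largest LV excess over storage times of the 7 genes. Its level in LV was 276, 223 and 317 CPM at 0 h, 367, 444 and 205 CPM at 4 h, and 904, 457 and 137 CPM at 8 h. In RV it was 59.8, 27.8 and 52.2 CPM at 0 h, 157, 106 and 27.7 CPM at 4 h, and 201, 74.2 and 40.4 CPM at 8 h. At 0 h and 4 h every LV library lay above every RV library, and over all times 8 of 9 LV libraries did, LV 8 h replicate 3 being the exception. The order of the means was LV 8 h (499 ± 385 CPM, SD, n = 3), LV 4 h (339 ± 122), LV 0 h (272 ± 46.9), RV 8 h (105 ± 84.9), RV 4 h (96.6 ± 64.8) and RV 0 h (46.6 ± 16.7), and no pair of neighbours within a ventricle passed the test.

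Over storage times Acta1 was 4.60-fold higher in LV (log2 2.20, SE 0.41, edgeR adjusted p = 0.015). At single times the unpaired differences were log2 2.55 at 0 h, 1.81 at 4 h and 2.24 at 8 h, with adjusted p of 0.545, 1 and 0.279, and without LV 8 h replicate 3 the value at 8 h was 2.69 (adjusted p = 0.0761). DESeq2 called Acta1 at 0 h (adjusted p = 0.0143) and 8 h (adjusted p = 0.0448). So did edgeR with a Y-linked covariate (adjusted p of 0.0354 and 0.0841), and neither called it at 4 h. With hearts as the block the differences at 0, 4 and 8 h were 2.60 (adjusted p = 6.4e-04), 2.05 (0.0048) and 2.19 (5.1e-04), and all 3 were called. LV exceeded RV in 9 of 9 hearts, by 1.23 to 3.0045 log2 units. With storage, Acta1 in LV differed from 0 h by log2 0.32 at 4 h and 0.88 at 8 h, whereas RV differed by 1.06 and 1.17. None of these passed, the RV intervals being -0.43 to 2.56 and -0.33 to 2.66. With a Y-linked covariate the RV value at 8 h was log2 1.04 and passed (edgeR adjusted p = 0.0965). The paralog Actc1, the cardiac alpha-actin, differed between LV and RV by log2 0.24 over storage times (adjusted p = 0.709), and Acta2, the smooth muscle isoform, by -0.45 (adjusted p = 0.649). Markers of skeletal muscle were near 0, the 7 of them summing to between 2.74 and 6.79 TPM in every library, with Myh4 at 0 in 12 of 18.

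In all, edgeR called 2 of the 7 genes between LV and RV over storage times, Nppb and Acta1, against 1.18% of genes tested, and 3 of 7 with hearts as the block, against 3.76%. At 0 h the unpaired fit called 1 of 7 (0.159% of all genes) and the paired fit 3 of 7 (1.85%). At 4 h the unpaired edgeR count was 0 of 7, with 2 at an unadjusted p under 0.05 and 0 by DESeq2 (background 0.0133%), and the paired count 2 of 7 (1.93%). At 8 h it was 0 of 7, with 2 at an unadjusted p under 0.05 and 1 by DESeq2 (background 0.0331%), and 3 of 7 paired (8.78%). For the difference between ventricles in the change to 4 h it was 0 of 7, with 0 at an unadjusted p under 0.05 and 0 by DESeq2 (background 0%). For the change to 8 h it was 0 of 7, with 1 at an unadjusted p under 0.05 and 0 by DESeq2 (background 0%), and 1 of 7 paired, Nppb (5.71%). The calls between the ventricles in these fits were of Nppb, Acta1 or Ankrd1, and in paired fits over storage times all 3 were called whichever heart was left out.

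**Figure D4:**
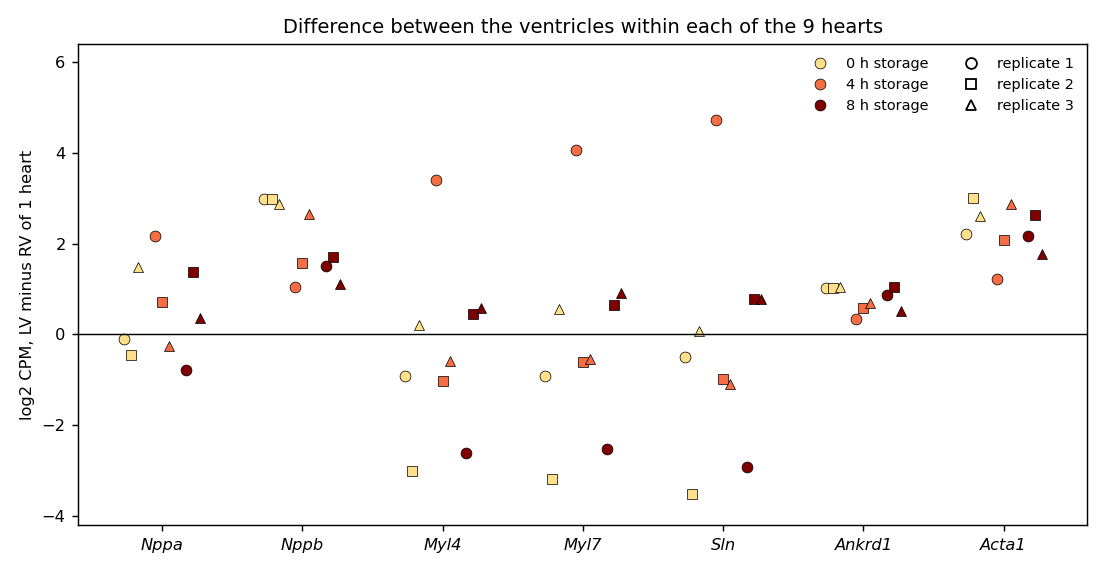
Difference between LV and RV of the same heart, in log2 CPM, for each gene and each of the 9 hearts (colour, storage time; marker shape, replicate number). Nppb, Ankrd1 and Acta1 lie above 0 in 9 of 9 hearts, with medians of 1.70, 0.86 and 2.20, while Myl4, Myl7 and Sln lie on both sides of 0, the difference for Sln running from -3.53 to 4.72.

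Nppb, Ankrd1 and Acta1, grouped here because each was higher in LV, were correlated over libraries, and that shared LV excess raises r of log2 CPM. It was 0.86 between Nppb and Acta1, 0.84 between Nppb and Ankrd1 and 0.89 between Ankrd1 and Acta1. With group means removed r was 0.63, 0.81 and 0.89. By that measure Acta1 ranked 539 and Ankrd1 85 among genes by likeness to Nppb, and Acta1 ranked 8 by likeness to Ankrd1. Against Myl4, these genes had r between -0.28 and -0.22 on log2 CPM. Replicate 1 was the highest of its group in 6 of 6 groups for Nppb, in 6 of 6 for Ankrd1 and in 4 of 6 for Acta1. The LV and RV groups of a storage time share hearts. The genes nearest to Nppb were Cnksr1 (r = 0.93), Ptgds (r = 0.90) and Fam213b (r = 0.88), and with group means removed Hilpda (r = 0.94), Anxa5 (r = 0.92) and Tnfrsf12a (r = 0.91). Ankrd1 was nearest to Otulin, Acta1 and Pcbp4 (r of 0.89, 0.89 and 0.89), and with group means removed to the collagen genes Col5a2, Col5a1 and Col1a2 (r of 0.94, 0.92 and 0.91). Acta1 was nearest to Cox19, Myot and Ankrd1 (r of 0.89 each), and with group means removed to Snx8, Sept9 and Tspan9 (r of 0.95, 0.95 and 0.94).

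The summed levels of fibroblast and red cell markers were highest in replicate 1 at 4 h and 8 h in both ventricles, but not throughout at 0 h. At 0 h the fibroblast sum was highest in replicate 2 of LV (387 TPM) and of RV (476 TPM). The red cell sum was highest at 0 h in LV replicate 2 (18.96 TPM) and in RV replicate 1 (18.5 TPM). The summed level of 5 fibroblast markers ranged from 293 to 638 TPM, with its highest value in RV 8 h replicate 1, and 0 of 5 were called in any unpaired storage comparison or between the ventricles over storage times. With the replicate block 1 of 5 was called, Col1a1 in RV at 8 h (log2 0.60, adjusted p = 0.0416), against 24.3% of all genes. The summed level of 5 red cell genes ranged from 7.29 to 491 TPM and was highest in LV 8 h replicate 1, the library with the highest Ankrd1 and Acta1. It was 234 TPM in LV 4 h replicate 1 and 269 TPM in RV 4 h replicate 1, the highest of their groups. Of the red cell genes, 2 were called higher in LV at 8 h (6.72% of all genes were called), Hbb-bs by log2 3.90 and Hbb-bt by 3.80. The unpaired fits called no marker of this list elsewhere. With the replicate block, 2 of 4 tested were called higher in RV at 4 h, Hba-a2 (log2 2.91) and Hbb-bs (log2 2.39), and 4 of 4 at 8 h, by log2 2.54 to 3.0025. The block called 13.9% of all genes in RV at 4 h and 24.3% at 8 h, Nppb among them. At 8 h the block also gave LV an excess over RV for 3 of 5 red cell genes (8.78% of all genes called), and over storage times for 2 of 5 (3.76%). Hba-a1 and Hba-a2 are near-identical copies, whose reads cannot be divided with certainty. Their part in the levels of Nppb, Ankrd1 and Acta1 was not tested.

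Most of the other genes of the natriuretic peptide system did not pass the test. Of 17 listed genes, edgeR called 3 lower and none higher in RV at 4 h and 3 lower and 2 higher in RV at 8 h. The shares of all genes called were 10.1% and 18.2%. In LV it called none of 16 tested at 4 h (4 at an unadjusted p under 0.05) and 1 lower at 8 h, against 2.79% and 6.72%. Npr3, the clearance receptor, fell in RV by 0.94 on the log2 scale at 4 h (adjusted p = 0.0293) and by 0.91 at 8 h (adjusted p = 0.0183), and it was lower in LV than in RV over storage times (log2 -0.71, adjusted p = 0.0691). Gucy1a1, a subunit of the nitric oxide receptor cyclase, fell in RV by 1.02 at 4 h and 0.77 at 8 h. Ide, a protease that degrades the peptides, fell at 8 h by 0.88 in LV and by 0.96 in RV. Nppc, the C-type peptide gene, was called higher in RV at 8 h (log2 3.43) at a level that did not exceed 0.986 TPM in any library. Corin, the cardiac protease that cleaves the Nppa precursor and the most abundant of the list (median 50.5 TPM), differed from 0 h at 8 h by -0.56 in LV and -0.50 in RV and was not called. When paired, Npr3 was also lower in LV than in RV at 0 h (log2 -1.21) and 4 h (log2 -0.59), and its change to 8 h differed by log2 0.80. The median change of the list at 8 h was log2 -0.29 in LV and -0.38 in RV.

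Of 22 other fetal and stress-programme genes, 5 were called higher and none lower in RV at 4 h, and again 5 and none at 8 h. The shares of all genes called were 10.1% and 18.2%. In LV it was 0 of 21 at 4 h (3 at an unadjusted p under 0.05) and 1 higher and 1 lower at 8 h, against 2.79% and 6.72%. Tnfrsf12a, the receptor of the cytokine TWEAK, rose in RV by log2 2.34 at 4 h (adjusted p = 0.00992) and 2.12 at 8 h (adjusted p = 0.007). Ccn2, a matricellular growth factor gene, rose in RV by 1.88 and 0.94, and Xirp1, an actin-binding protein of intercalated discs, rose in RV at 4 h by 2.06. Ankrd23, of the same protein family as Ankrd1 and named after its values were seen, rose in RV at 4 h by 1.40 (adjusted p = 0.0841), and it was not called in LV. Ankrd2, another member of that family, rose at 8 h by 1.40 in LV and 2.45 in RV at 1.41 TPM or less. Myh6, the adult alpha-myosin heavy chain and the most abundant of the list, fell in LV at 8 h by 0.63 (adjusted p = 0.041). That fall was in counts, with LV means of 34390 CPM at 0 h and 22100 CPM at 8 h. On the length-scaled level the LV medians were 11210 and 10950 TPM, and the reason for this gap was not tested. Over storage times 3 of 22 were called higher in LV than in RV and none lower, against 1.18% of all genes. Among the 3 were the slow beta-myosin Myh7 (log2 1.11, adjusted p = 0.00254) and Ankrd2 (log2 1.13, adjusted p = 0.0771). With the replicate block 9 of 22 were called higher in RV at 8 h (24.3% of all genes were called), among them Xirp1 (log2 0.82) and Ankrd23 (log2 1.13). In the paired fits LV differed from RV in 8 of 22 at 0 h (7 higher, 1 lower), 3 at 4 h (all higher) and 9 at 8 h (3 higher, 6 lower). The shares of all genes were 1.85%, 1.93% and 8.78%, and the unpaired counts of the list were 1, 0 and 0. For the paired change to 8 h, 7 of 22 were called lower in LV than in RV, as Nppb was, against 5.71% of all genes called. Among the 7 were Tnfrsf12a (log2 -1.54, adjusted p = 0.00131) and Ccn2 (log2 -1.48, adjusted p = 0.0043). For the paired change to 4 h Tnfrsf12a was called (log2 -1.39).

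Among 5 ventricular cardiomyocyte genes, Myl2 was not called at 8 h, with log2 differences from 0 h of 0.10 (LV) and -0.13 (RV). Hey2, a repressor of atrial genes in ventricle, fell at 8 h by 0.84 in LV and 0.78 in RV, and it was lower in LV than in RV (log2 -0.80, adjusted p = 0.00461). Irx4, another ventricular repressor, fell in RV at 8 h by 0.94. With the replicate block Hey2 also fell in RV at 4 h (log2 -0.65). In paired fits Hey2 was lower in LV at each time, while Irx4 was higher in LV at 8 h (log2 0.66) and Myh7 at 4 h and 8 h (log2 0.93 and 0.85). Of 16 tested transcription factors that are known to act on promoters of this kind, 1 was called higher and 1 lower in LV at 4 h. In LV at 8 h 2 were called lower, and in RV 1 lower at 4 h and 2 lower at 8 h. The shares of all genes were 2.79%, 6.72%, 10.1% and 18.2%. None was called between LV and RV over storage times (2 at an unadjusted p under 0.05), against 1.18% of all genes. The replicate block called 3 in RV at 4 h (1 higher, 2 lower, 13.9% of all genes called). It called 4 lower in RV at 8 h (24.3%), Gata4 among them (log2 -0.71). Paired fits called 3 between LV and RV at 8 h (8.78%) and 2 for the change to 8 h (5.71%). Srf, serum response factor, rose in LV at 4 h by 0.75 (adjusted p = 0.0457). Nfatc4, a calcineurin-dependent factor, fell at both times in both ventricles, by 0.75 to 1.09, and Tbx20 fell at 8 h by 0.61 in LV and 0.68 in RV. Mef2d, the most abundant of the list (median 42.0 TPM), was not past the fold limit, at -0.44 in LV and -0.52 in RV at 8 h.

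Some markers of the remaining cell types were called. Of 5 endothelial markers, 1 was called, Tek in RV at 4 h (log2 -0.72). Of 4 smooth muscle and pericyte markers it was 1, Pdgfrb, in the same comparison (log2 -0.70), against 10.1% of all genes. Of 5 macrophage markers 2 were called, Mrc1 (log2 1.05) and Adgre1 (log2 0.91), both higher in RV at 8 h, against 18.2% of all genes. None of 4 epicardial and mesothelial markers and none of the skeletal muscle markers was called with storage in the unpaired edgeR fits, or between LV and RV over storage times, the former summing to between 5.53 and 29.2 TPM. Of these, 2 epicardial markers and 1 skeletal muscle marker had an unadjusted p under 0.05 between LV and RV over storage times. The replicate block called Wt1, an epicardial transcription factor, higher in RV at 4 h (log2 1.60, adjusted p = 0.0687) and at 8 h (log2 1.45, adjusted p = 0.0658). The block called 13.9% and 24.3% of all genes there, Nppb among them. Wt1 was at 15.8 ± 12.2 CPM (SD, n = 3) in RV at 0 h, 43.04 ± 11.1 at 4 h and 37.1 ± 13.6 at 8 h. The other epicardial markers did not share this rise at 8 h and were not called in RV with storage. Their RV means at 0, 4 and 8 h were 4.095, 5.60 and 3.42 CPM for Upk3b and 2.545, 3.64 and 1.99 CPM for Msln. For Lrrn4 they were 1.02, 0.603 and 0.376 CPM. Over storage times the block called the epicardial markers Upk3b (log2 -1.05) and Msln (log2 -0.87) and the skeletal muscle marker Myh1 (log2 -0.87) lower in LV than in RV. It did not call Tek in RV at 4 h (adjusted p = 0.105), and it called Mrc1 lower in LV than in RV at 8 h (log2 -0.62) and Acta2 at 0 h (log2 -0.59). Their part in the member genes' values was not tested.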

How the data were processed

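Total RNA was extracted from 18 LV and RV samples. Per the study's methods, the libraries were directional and made with an mRNA selection step. Per the labels and the study's methods, the authors pseudoaligned reads to GRCm38 with kallisto 0.43.0 at default settings, which ignore strand. They deposited estimated counts, lengths and TPM (transcripts per 1000000) for 111462 transcripts in each library. Estimated counts were summed here over the transcripts of each gene with GENCODE M21, which matched 110203 of these transcripts and gave 34989 genes, and were rounded to whole numbers for the fits. CPM are counts per 1000000 after TMM scaling. The deposited TPM values were summed without other changes and used to compare genes.

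Genes were filtered with filterByExpr and tested with edgeR 4.0.16 (quasi-likelihood, TMM), with Benjamini-Hochberg adjustment over all genes tested. The threshold was an adjusted p below 0.1 together with more than 1.5-fold change. Storage times were compared within the 9 libraries of a ventricle, and LV with RV over all 18. Only the unpaired edgeR fit was tested on simulated data, for LV 8 h against 0 h and for LV against RV over storage times. The simulated libraries were independent, and the fits with a block were not tested in this way. Alternatives were DESeq2 1.42.0, other scaling and filters, transcript length offsets, a replicate block, a Y-linked covariate and leaving out each library. Same-numbered libraries deviated together (r over 0.1 in every pair) between LV and RV, between the RV storage times and between LV 4 h and 8 h. They did not all do so between LV 0 h and LV 4 h or 8 h. Only LV and RV of the same storage time and number were treated as 1 heart. Between storage times the replicate block joined different hearts by number, in LV and RV alike, and is not a pairing of animals.

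The 7 genes, the gene lists and the tests were chosen with earlier results of these data known. From each other list, at most 4 called genes with the largest changes and the most abundant gene were named, and for each of the 7 genes the 3 nearest in pattern. A gene that this rule names is not reported here. Estimated counts carry counting error that is small at this depth except for the lowest values of Sln and Bmp10. R 4.3.3, limma 3.58.1 and Python 3.11.15 were used.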

Additional observations from a re-analysis of the deposited data

Results flagged for a closer look

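The change of Nppb from 0 h to 8 h differed between the ventricles in the paired fit, by -1.51 on the log2 scale (LV minus RV, SE 0.32, edgeR adjusted p = 0.0172). Within hearts, LV exceeded RV by 2.99, 2.97 and 2.88 log2 units at 0 h and by 1.51, 1.70 and 1.12 at 8 h, so the difference was smaller in 3 of 3 hearts at 8 h than in any at 0 h. In the unpaired fit the value was -1.53 with an adjusted p of 1, and the paired fits that left out one library pair at a time gave -1.64 to -1.35 with the call made in 9 of 9. The difference in the change to 4 h, -1.21 in the paired fit, did not pass (adjusted p = 0.198).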

How the results depend on the processing

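Of 2520 values of the 7 genes under the alternatives, 2383 kept their direction and their side of the threshold, 128 gained a call and 9 lost one, and no called value changed sign. Uncalled values within 1 standard error of 0 that changed sign, 166 in all, were counted as unchanged in direction. Relative log expression scaling, transcript length offsets, leaving out mitochondrial genes and dropping the fold limit changed no count of called genes.

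The replicate block changed these counts. For LV against RV it called 3 of 7 at 0 h, 2 at 4 h, 3 at 8 h and 1 for the change to 8 h, where the unpaired counts were 1, 0, 0 and 0, and in RV at 8 h 1 against 0. Over storage times it called 3 against 2, and elsewhere the count was equal. Over all genes it called 279 against 24 at 0 h, 291 against 2 at 4 h, 1325 against 5 at 8 h, 567 against 178 over storage times and 862 against 0 for the change to 8 h. Same-numbered LV libraries did not all deviate together between 0 h and 4 h (r of 0.04 to 0.26) or 8 h (-0.02 to 0.10), and the block called 0 of 7 there. DESeq2 called 2 at 0 h, 1 at 8 h and 3 over storage times between the ventricles and 1 in RV at 8 h. The Y-linked covariate called 2, 1, 3 and 2 in the same comparisons, those in RV at 8 h being Nppb and Acta1. Without a filter on low counts, and with all 18 libraries in the fit, 1 was called in RV at 8 h.

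Leaving out 1 library at a time without the block gave 0 to 1 calls for RV at either storage time and for LV against RV at 0 h and 8 h, and 2 to 3 over storage times. With the block, leaving out 1 heart gave 3 to 3 calls between LV and RV at 0 h and 8 h, 2 to 3 at 4 h, 0 to 1 for the change to 4 h (Nppb, without 4 h or 8 h heart replicate 3) and 1 to 1 for the change to 8 h. Leaving out 1 library gave 1 to 2 for RV at both times, where Acta1 was called without RV 0 h replicate 3 (log2 1.58 and 1.70), and 0 to 3 in LV at 8 h, where Myl4, Myl7 and Sln were called without LV 8 h replicate 1 (log2 1.42, 1.55 and 1.69) and Nppa and Acta1 without LV 0 h replicate 3 (log2 0.70 and 1.21). The left-out fits with a block were added after seeing the data. The cause of these differences was not tested. The spread between libraries limited Myl4, Myl7 and Sln, whose standard errors were 0.55 to 1.00 with storage.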
